A study of Mus musculus with 2 samples.

Results

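Cytosolic ribosomes are built from ribosomal RNA and a fixed set of proteins, and the genes for those proteins were followed here across the cell classes of the newborn mouse pallium. Members were the gene symbols of the Rpl and Rps series, with Rplp0, Rplp1, Rplp2 and Rpsa and without the Rps6k kinases, that held at least 500 UMIs (unique molecular identifiers, each 1 counted molecule) in barcodes with at least 500 genes and at most 10% mitochondrial UMIs. Of the 32285 genes in the files, 83 matched the symbols and 80 passed, 48 of the large and 32 of the small subunit, all annotated as protein coding and spread over 19 chromosomes. The lowest member kept was Rpl7l1 with 16732 UMIs, and those left out were Rpl39l with 36, Rpl3l with 5 and Rpl10l with 0. Together the members took 14.0% of the UMIs of those barcodes. The selection used no difference between classes.

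Each ribosome carries a single copy of nearly every one of these proteins, so cells make them in step with each other and with ribosomal RNA. Most of their messenger RNAs begin with a cytosine followed by an unbroken run of pyrimidines, the 5′ terminal oligopyrimidine (TOP) tract, through which the mTOR pathway and the RNA-binding protein LARP1 control their translation. A few members have a paralogue that can take their place, among them Rpl22l1 for Rpl22 and Rps27l for Rps27, and in mouse and human cells Rps27l is a target of the tumour suppressor p53. In the brain, growing and dividing cells need many ribosomes, and neurons also translate in their processes.

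The 2 libraries, replicate 1 and replicate 2, form a single group of wild-type mice. Proliferating cells were labelled with EdU, a thymidine analogue, at embryonic day 12 (E12), and the pallium, the dorsal forebrain that gives rise to the cortex, was taken at postnatal day 3 (P3) from pooled brains. Cells that excluded propidium iodide and lay among the brightest 10% for EdU were sorted and captured in droplets with 10x Genomics 3′ v3.1 chemistry. The design holds no treatment, so comparisons ran between cell classes of the same libraries. Whether the libraries stem from different animals is not stated, so a p-value here speaks only of how far these samples vary, and that variation may be technical.

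Filtering left 10399 cells in replicate 1 and 10157 in replicate 2, at median depths of 7291 and 8290 UMIs. They shared 62 barcodes, of which 35 belonged to cells kept in the analysis. Clustering without the ribosomal protein genes gave 31 clusters, and 9 clusters with 4008 of the 20556 cells stayed unnamed. The 8 classes compared held 15924 cells. Their defining markers bore out the names: Pdgfra stood at 991 and 1064 CPM (UMIs scaled to a common library total) in cells like oligodendrocyte precursors (OPC-like) in replicates 1 and 2, at 897 and 1017 in dividing OPC-like cells and at no more than 34.5 in the other classes. Aqp4 reached 776 and 758 CPM in astroglia-like cells, Neurod2 566 and 615 in glutamatergic-like cells, Gad2 569 and 614 in GABAergic-like cells and C1qa 4410 and 3773 in microglia-like cells. Cluster 5, led by Eomes, a gene of intermediate progenitors, held 510 of 825 and 608 of 932 glutamatergic-like cells. Its leading genes hold Eomes and Sstr2 of the intermediate progenitor list beside Neurod2, Neurod1, Tbr1 and Neurod6 of the glutamatergic list. A further dividing class expressed Mki67 without enough markers of 1 lineage to be named by it.

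The start sites of 6 members are shown because their transcripts carry the results that follow: Rpl13, which left the level of the other members in OPC-like cells, and the paralogue pairs. Each is a stretch of 30 bases, 15 before and 15 from the first listed RefSeq start on, on the gene's own strand of GRCm38.p6, the patch release of the mm10 build named by the submitters' processing notes. Capitals mark runs of at least 5 pyrimidines that begin with C.
Rpl13: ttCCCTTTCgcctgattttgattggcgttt
Rpl22: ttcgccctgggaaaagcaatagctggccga
Rpl22l1: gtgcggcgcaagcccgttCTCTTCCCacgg
Rps27: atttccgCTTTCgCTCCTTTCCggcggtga
Rps27l: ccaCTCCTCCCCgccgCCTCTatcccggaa
Rpl7l1: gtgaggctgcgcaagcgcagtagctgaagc
The stretches lie at chr8:123102335-123102364 (plus strand) for Rpl13, chr4:152325711-152325740 (plus) for Rpl22, chr3:28805493-28805522 (plus) for Rpl22l1, chr3:90213634-90213663 (minus) for Rps27, chr9:66946071-66946100 (plus) for Rps27l and chr17:46782642-46782671 (minus) for Rpl7l1. Rpl13, Rps27, Rps27l and Rpl22l1 hold such a run near the listed start, and Rpl22 and Rpl7l1 hold none in this window. The run of Rpl13 lies wholly before the listed start, outside the listed transcript. So do the longer run of Rps27l and the shorter run of Rps27. The longer run of Rps27 spans the start, and the shorter run of Rps27l and the run of Rpl22l1 lie after it.

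RefSeq promoter entries matched 60 of the 80 members, and 20 had no entry. A pyrimidine run of this kind on the sense strand lay within 15 bases of the listed start in 36 of the 60 (60%), against 36.4% of 27025 genes. In the 300 bases from 250 before to 50 after the start, the letters CGGAAG, the core that ETS-family factors bind, occurred on either strand in 41 of the 60 (68.3%), against 17.2% of all genes. AAGATGGC, a YY1 core, occurred in 5 (8.33%) against 2.88%. A match of letters is a description of the sequence and not a bound site.

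Ribosomal protein transcripts took the largest share of UMIs in microglia-like cells and the smallest in astroglia-like cells. Over all cells of a class, members made up 22.1% and 20.8% of UMIs in microglia-like cells (120 and 143 cells in replicates 1 and 2). The share was 16.7% and 15.5% in the dividing class with no lineage name, 14.6% and 14.0% in OPC-like cells (3222 and 3266 cells), 14.1% and 13.9% in GABAergic-like cells and 13.7% and 13.4% in glutamatergic-like cells. Dividing GABAergic-like cells had 13.2% and 12.03%, dividing OPC-like cells 12.8% and 11.9%, and astroglia-like cells 10.3% and 10.2%. The microglia-like values lay above and the astroglia-like values below those of every other class compared, in both libraries. OPC-like and GABAergic-like cells overlapped, and glutamatergic-like cells lay just below both. Outside these 8 classes, oligodendrocyte-like cells had 17.1% and 16.7% and Cajal-Retzius-like cells 11.7% and 11.4%. A share is set by the members and by everything else in the cell, so more ribosomal protein RNA and less other RNA cannot be told apart.

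**Figure D1:**
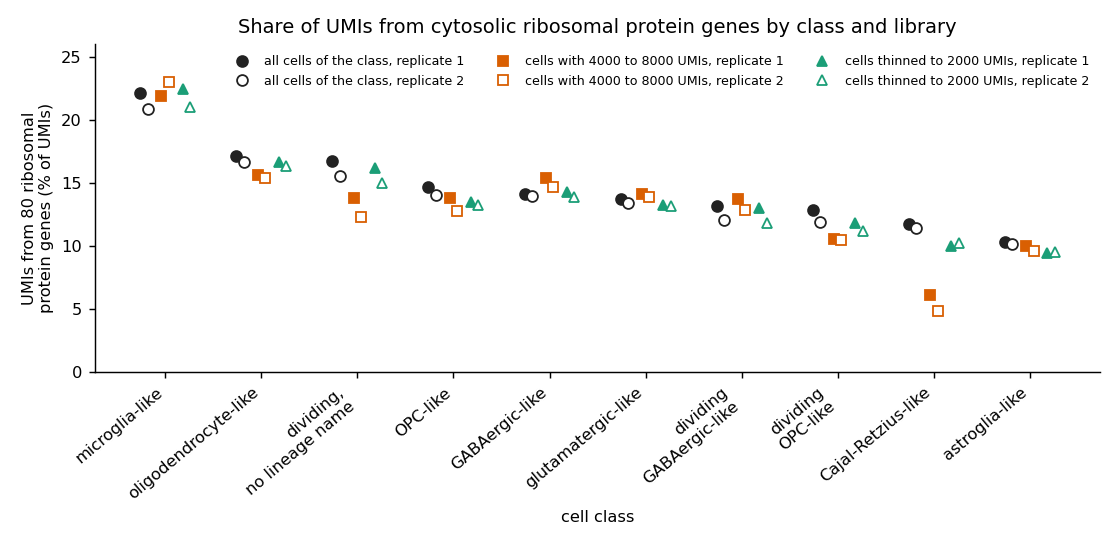
Share of UMIs from the 80 ribosomal protein genes (percent, vertical axis) per cell class, with filled symbols for replicate 1 and open for replicate 2: circles for all cells, squares for cells with 4000 to 8000 UMIs and triangles for cells thinned to 2000 UMIs. Over all cells, microglia-like cells reach 22.1% and 20.8% and astroglia-like cells 10.3% and 10.2%.

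At 4000 to 8000 UMIs and after thinning, microglia-like cells stayed highest and astroglia-like cells lowest of the 8 classes. At 2000 to 4000 UMIs dividing OPC-like cells (52 and 36 cells) had 6.02% and 5.66%, below the 6.11% and 6.01% of astroglia-like cells. No value is given for microglia-like cells in that lowest bin. Among cells with 4000 to 8000 UMIs, members took 21.9% and 23.0% in microglia-like cells, though from 15 and 11 cells only. At 4000 to 8000 UMIs the share was 15.4% and 14.7% in GABAergic-like, 14.1% and 13.9% in glutamatergic-like and 13.8% and 12.7% in OPC-like cells. Dividing OPC-like cells had 10.5% in both libraries (35 and 39 cells), and astroglia-like cells 10.0% and 9.59%. Cajal-Retzius-like cells, outside the 8 classes, had 6.10% and 4.86%, from 20 and 16 cells. Those cells had Malat1 at 47538 and 54260 CPM and median mitochondrial shares of 7.40% and 7.83%. At 16000 to 32000 UMIs the Cajal-Retzius-like share was 12.6% and 11.9%. The glutamatergic-like and GABAergic-like classes stood above OPC-like cells at 4000 to 8000 UMIs in both libraries, which they did not over all depths. At 8000 to 16000 UMIs the order turned within each library. OPC-like cells had 15.8% and 14.7% there, GABAergic-like cells 14.7% and 14.35% and glutamatergic-like cells 14.3% and 13.5%. Thinning to 2000 UMIs per cell left out the shallower cells, 386 and 228 of the 1078 and 965 GABAergic-like, 307 and 257 OPC-like, 251 and 224 astroglia-like, 17 and 10 glutamatergic-like and 5 and 1 microglia-like cells. In the cells kept, the shares were 22.5% and 21.0% in microglia-like, 14.3% and 13.9% in GABAergic-like, 13.4% and 13.3% in OPC-like, 13.2% in glutamatergic-like cells of both libraries and 9.43% and 9.50% in astroglia-like cells.

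In the OPC-like, astroglia-like, glutamatergic-like and GABAergic-like classes the share was lowest in cells with 2000 to 4000 UMIs. OPC-like cells with 2000 to 4000 UMIs gave 7.41% and 7.37% of their UMIs to members, those with 4000 to 8000 gave 13.8% and 12.7%, and those with 8000 to 16000 gave 15.8% and 14.7%. In the shallowest of these bins Malat1, a nuclear-retained RNA, stood at 82149 and 78197 CPM against 31825 and 30878 in the next bin, and the median mitochondrial share was 7.17% and 7.53%. Astroglia-like cells ran from 6.11% and 6.01% at 2000 to 4000 UMIs to 11.8% and 11.5% at 16000 to 32000. Glutamatergic-like cells had 7.97% and 8.93% in the lowest bin and 14.1% and 13.9% in the next, then 14.3% and 13.5% at 8000 to 16000 UMIs and 13.4% and 12.01% at 16000 to 32000. GABAergic-like cells had 11.7% and 11.2%, then 15.4% and 14.7%, and 14.7% and 14.35% at 8000 to 16000, so neither class rose further above 8000 UMIs in both libraries. The part of nuclear RNA or damaged cells in these values was not tested.

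The clusters within the OPC-like class spanned a wider range of shares than the OPC-like, glutamatergic-like and GABAergic-like classes did. The 4 OPC-like clusters were described after their values had been seen and so carry no test. Members took 11.6% and 11.4% of UMIs in cluster 3, led by Pnlip, 14.1% and 13.4% in cluster 9, led by Rasl11a, and 19.5% and 18.6% in cluster 10, led by A930009A15Rik. Cluster 13, led by Sgcz, had 7.18% and 6.71%, with a median of 2171 and 2110 UMIs per cell, Malat1 at 84571 and 84949 CPM and a median mitochondrial share of 7.44% and 7.63%. The order of clusters 3, 9 and 10 was the same in every depth bin from 4000 UMIs up: at 8000 to 16000 UMIs they had 11.4% and 11.2%, 14.2% and 13.3%, and 19.8% and 18.9%.

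**Figure D2:**
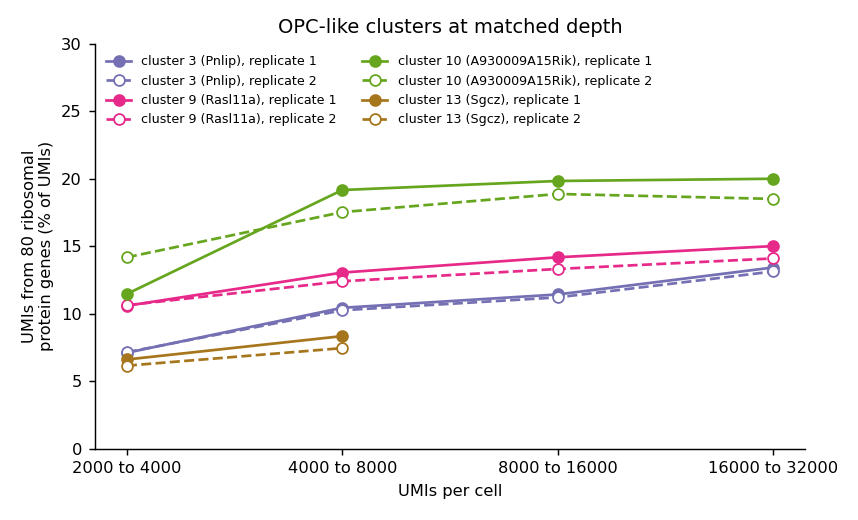
Share of UMIs from the 80 ribosomal protein genes (percent, vertical axis) in the 4 OPC-like clusters by depth bin (UMIs per cell, horizontal axis), with filled points for replicate 1 and open for replicate 2. At 8000 to 16000 UMIs cluster 10 stands at 19.8% and 18.9% and cluster 3 at 11.4% and 11.2%.

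All 80 members were higher in cluster 10 than in cluster 3 in both libraries, by a median of 0.77 and 0.73 on the log2 scale of CPM, while 20% of the 9212 genes with at least 10 CPM were, with medians of -0.26 and -0.23. Rplp0, a protein of the ribosomal stalk, had 1763 and 1670 CPM in cluster 3 and 4072 and 3675 in cluster 10, the largest difference of a member. Rpl7l1 was closer, at a log2 difference of 0.37 in replicate 1. Rpl13 was level, at 7685 and 7136 CPM in cluster 3 and 7922 and 7315 in cluster 10. The clusters also differed in lineage genes: the Notch ligand gene Dll3 stood at 50.3 and 60.8 CPM in cluster 3 and 212 and 205 in cluster 10, and Pdgfra at 1293 and 1411 against 634 and 685.

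Single genes were tested on UMIs summed per library and class with edgeR's quasi-likelihood test, the library as a block and Benjamini-Hochberg adjustment over all 14668 genes tested. A gene is called higher or lower at an adjusted p under 0.05. Shares of all genes called are those of the main fit. None is given for the alternatives, so counts under them can also reflect how many genes were called in all. All 80 members passed the filter on low counts. The fitted fold changes use TMM scaling, which sets the middle of the genes level between classes, so they differ from ratios of CPM where the scaling factors differ. The factors were 1.11 and 1.13 in OPC-like, 0.971 and 0.989 in astroglia-like and 0.746 and 0.758 in microglia-like cells. The contrasts of astroglia-like, glutamatergic-like, GABAergic-like and microglia-like cells share the OPC-like sums and are not independent of each other.

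**Figure D3:**
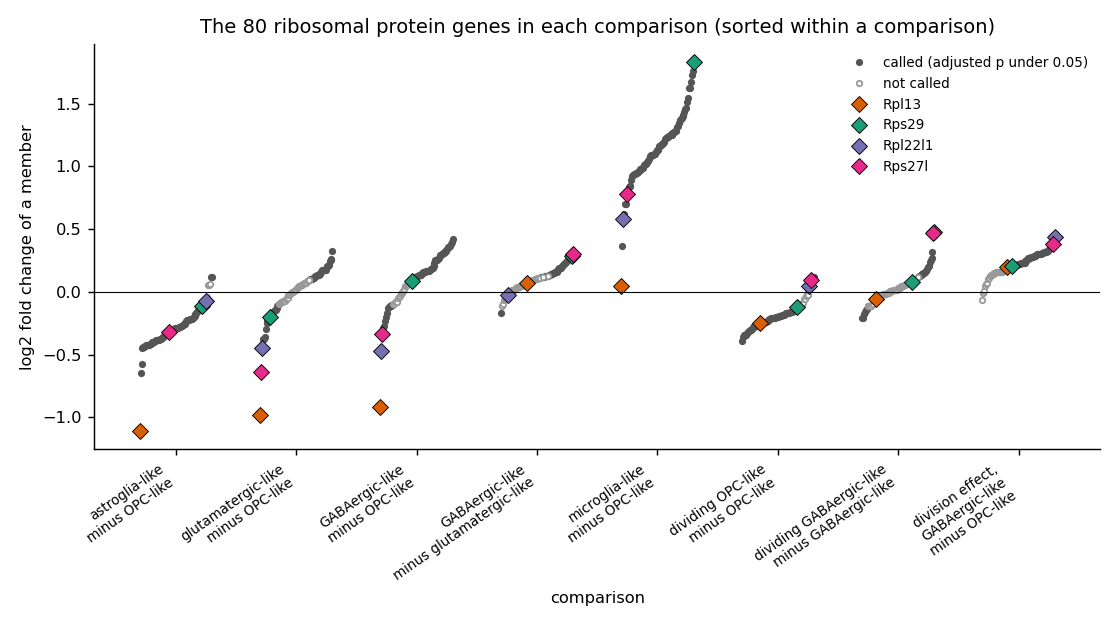
Log2 fold change of each of the 80 ribosomal protein genes (vertical axis) in the comparisons of cell classes (horizontal axis), sorted within a comparison, with filled points for called and open for uncalled genes. The member median is 1.13 in microglia-like and -0.29 in astroglia-like against OPC-like cells, and Rpl13 lies at -1.11, -0.98 and -0.92 in astroglia-like, glutamatergic-like and GABAergic-like cells.

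In microglia-like cells, the immune cells of the brain, almost the whole module rose over OPC-like cells. Of the 80 members 79 were called higher and 0 lower, where 32.5% and 36.1% of all genes tested were called higher and lower. DESeq2 called 80 higher and 0 lower, and 0 members had a lower level at an unadjusted p under 0.05. The member median was 1.13 (log2) and that of all genes -0.14, and both subunits took part, with 47 of 48 large and 32 of 32 small subunit genes.

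Rps29, a zinc-binding protein of the small subunit, had 3342 and 2885 CPM in OPC-like cells and 8154 and 6765 in microglia-like cells. The values do not overlap, and the fitted log2 fold change was 1.83 ± 0.05 (SE). Rps29 was also the most abundant member in microglia-like cells, a place that Rpl13 held in OPC-like cells. Rpl12, a protein at the base of the stalk, went from 679 and 828 CPM to 1582 and 1845 (log2 fold change 1.76 ± 0.05). Rps12 (1.73) and the stalk protein gene Rplp1 (1.67) followed. Relative to the module as a whole, Rps29 stood 0.56 and 0.55 above its mean over the classes.

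Rpl13, of the large subunit, was the 1 member not called, with 7664 and 7210 CPM in OPC-like and 5310 and 5013 in microglia-like cells (log2 fold change 0.04 ± 0.05, edgeR adjusted p = 0.386). Its CPM was lower in microglia-like cells in both libraries, and the fitted value differs through the scaling factors. Rpl23a, at the exit of the peptide tunnel where the signal recognition particle docks, had 608 and 781 CPM in OPC-like and 656 and 779 in microglia-like cells. Its CPM thus overlapped between the classes, while the fitted log2 fold change was 0.62 ± 0.05. It stood 0.53 and 0.56 below the level of the module in microglia-like cells, and 0.59 and 0.45 below after thinning. The smallest called rises were those of Rpl7l1 (0.37) and Rpl22l1 (0.58), and Rpl7l1 was no longer called after thinning, at 0.20.

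S100a8 and S100a9, markers of neutrophils and monocytes, moved with this class. They stood at 422 and 77.0 CPM in replicate 1 and at 2782 and 2460 CPM in replicate 2 of the microglia-like cells. In the other classes neither S100a8 nor S100a9 exceeded 3.3 CPM. At least 3 UMIs of the pair lay in 4 of 120 and 5 of 143 microglia-like cells. Other lists moved with the class too: 11 of 15 immediate early and dissociation genes were called higher and 3 lower (median log2 fold change 1.26), and 4 of 5 nuclear-retained RNAs were called lower and 1 higher, with Malat1 at 5904 and 5636 CPM against 35387 and 33336 in OPC-like cells. Their part in the result was not tested. Without the cells holding S100a8 and S100a9, an alternative chosen after the data had been seen, 79 members were again called higher with a median of 1.15, and the share of UMIs was 22.2% and 21.2%.

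In astroglia-like cells most of the module fell. Of the 80 members 71 were called lower and 2 higher than in OPC-like cells, where 34.6% and 33.3% of all genes tested were. The member median was -0.29 and that of all genes -0.01, and the called members included 43 of 48 large and 28 of 32 small subunit genes.

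The largest fall was that of Rpl13, from 7664 and 7210 CPM to 3071 and 2972 (log2 fold change -1.11 ± 0.05, edgeR adjusted p = 1.90e-131). Rps6, the small subunit protein that the S6 kinases phosphorylate, had 653 and 700 CPM in OPC-like and 358 and 400 in astroglia-like cells (-0.65 ± 0.05). Rps3a1 fell from 2520 and 2461 CPM to 1484 and 1454 (-0.57 ± 0.05), and Rpl4, which lines the peptide exit tunnel, by 0.44 on the log2 scale. None of these overlap between the classes. Rps10 and Rps12 were called higher by 0.12 each (edgeR adjusted p = 0.0149 and 0.0131), although their CPM were lower in astroglia-like cells in each library, such as 1862 and 1767 against 1736 and 1717 for Rps10. With library size and TMM computed without the members both turned to -0.01, and both calls were also lost with no filter, without the block and without low-depth clusters, and that of Rps12 in DESeq2. In the fit as reported 80 of 80 members had the same sign in both libraries.

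Genes of the stress response to tissue dissociation moved with this comparison. Of 15 immediate early and dissociation genes, 13 were called higher and 1 lower in astroglia-like cells, and their median log2 fold change was 1.96. The same list moved in the other contrasts with OPC-like cells, and its part in the level of the members was not tested.

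Against OPC-like cells, glutamatergic-like and GABAergic-like cells showed members going both ways over all depths. At 4000 to 8000 UMIs and after thinning most called members were higher. At 8000 to 16000 UMIs the share of members in both classes lay below that of OPC-like cells in each library, and single genes were not tested in that bin. In glutamatergic-like cells 25 members were called higher and 21 lower, where 31.2% and 35.2% of all genes tested were, with a median of 0.03 against -0.04 for all genes. The share of members called higher was near that of all genes, and the share called lower was below that of all genes. With library size and TMM computed without the members 39 were called higher, with no filter on low counts 11 higher and 31 lower, and without the block 5 higher and 10 lower. At 4000 to 8000 UMIs 63 members were called higher against 7 lower (median 0.28, all genes -0.02). After thinning it was 41 against 12 (median 0.12, all genes -0.02). Of the 15 immediate early and dissociation genes 4 were called higher and 11 lower (median -0.50), and Malat1 stood at 17758 and 16016 CPM.

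Rpl13 was again the lowest, with 3701 and 3567 CPM in glutamatergic-like cells (-0.98 ± 0.05). Rps27l fell from 329 and 321 CPM to 203 and 200 (-0.64 ± 0.06), Rpl22l1 from 697 and 654 to 486 and 474 (-0.44 ± 0.05), and Rpl29 by 0.38 on the log2 scale. Of the members that rose, Rpl38, known in mice for its part in translating Hox messenger RNAs, went from 1743 and 1573 CPM to 2094 and 1935 (0.33 ± 0.05). Rps25 (0.26), Rpl37 (0.25) and Rpl13a (0.25) followed. The values of Rpl13, Rps27l, Rpl22l1 and Rpl38 do not overlap between the 2 classes.

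In GABAergic-like cells 45 members were called higher and 14 lower than in OPC-like cells, where 29.1% and 33.5% of all genes tested were, with a median of 0.12 against -0.05. Without the block 22 were higher and 5 lower, and with no filter 22 and 22. At 4000 to 8000 UMIs 72 members were called higher against 3 lower (median 0.48, all genes -0.02). After thinning it was 57 against 6 (median 0.27, all genes -0.03). Of the immediate early and dissociation genes 6 were called higher and 8 lower (median -0.51), and Malat1 stood at 23271 and 20805 CPM. Rpl13 (3763 and 3560 CPM, -0.92 ± 0.05), Rpl22l1 (469 and 436 CPM, -0.47 ± 0.05), Rps27l (-0.34) and Rps18 (-0.29) fell most. Rpl38 rose most, to 2094 and 2032 CPM (0.42 ± 0.05), ahead of Rps26 (0.40), which lines the messenger RNA exit channel, and of Rpl35 (0.38) and Rpl10 (0.37). At 4000 to 8000 UMIs Rps18 stood at 0.02.

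GABAergic-like cells were above glutamatergic-like cells in 35 members and below in 1, where 16.8% and 18.3% of all genes tested were called. The member median was 0.11 and that of all genes -0.003. Rps27l (0.30), Rps29 (0.29), Rpl29 (0.27) and Rps26 (0.27) rose most, and Rpl13a alone fell, from 882 and 1088 CPM to 758 and 926 (-0.17 ± 0.05). The Rpl13a values of the 2 classes overlap across libraries and not within a library. Without the block 9 members were called higher, and at 4000 to 8000 UMIs 56, with a median of 0.20.

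In dividing OPC-like cells most members fell against other OPC-like cells. Of the 80, 63 were called lower and 1 higher, where 20.7% and 16.3% of all genes tested were, and without the block 27 were lower. The median was -0.20 against -0.08 for all genes, and -0.44 against -0.16 at 4000 to 8000 UMIs. Rps27 went from 1547 and 1447 CPM to 1186 and 1068 (-0.39 ± 0.05, edgeR adjusted p = 2.26e-15), without overlap. Rpl36 (-0.35) and Rpl10 (-0.35) were also among the lowest. The groups differ in depth, with medians of 11971 and 12850 UMIs in dividing and 7840.5 and 8753 in other OPC-like cells. Members took 12.8% and 11.9% of UMIs in the dividing cells, above clusters 3 (11.6% and 11.4%) and 13 (7.18% and 6.71%). That was below clusters 9 (14.1% and 13.4%) and 10 (19.5% and 18.6%). The part of cluster mix and depth in the fall was not tested beyond the alternatives run.

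In dividing GABAergic-like cells 19 members were called higher and 7 lower than in other GABAergic-like cells, where 20.2% and 18.4% of all genes tested were. The share called higher was near that of all genes, and the share called lower was below that of all genes. The groups differ in subtype and depth: the dividing cells form cluster 12, led by Sp9 and Sp8, with median depths of 9074 and 10232 UMIs. The others are cluster 1, led by Adarb2 (515 and 438 cells), cluster 2, led by Sst (203 and 176), both shallower, and cluster 20 (360 and 351), whose leading genes include Sp9 and Sp8. The part of subtype and depth in this comparison was not tested beyond the alternatives run. The median of 0.03, against -0.02 for all genes, was -0.06 without replicate 1 and 0.12 without replicate 2. Without the block 4 were called higher, and at 4000 to 8000 UMIs 1 higher and 29 lower, with a median of -0.15 against -0.10 for all genes. After thinning 2 were higher and 21 lower, with cells gated by markers 8 and 22, and without low-depth clusters 3 and 30. With no filter it was 17 higher and 6 lower, and with doublets kept 15 and 6. Rpl22l1 rose from 469 and 436 CPM to 580 and 537 (0.48 ± 0.06, edgeR adjusted p = 7.98e-17) and Rps27l from 249 and 230 to 309 and 279 (0.47 ± 0.06), both without overlap. Rpl7l1 (0.32) and Rpl13a (0.27) followed, and both were negative at 4000 to 8000 UMIs (-0.08 and -0.04). Rpl38 (-0.21), Rpl37 (-0.20), Rps27 (-0.17) and Rps2 (-0.16) fell most.

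The difference between the 2 division effects was tested as an interaction. The effect was higher in the GABAergic-like than in the OPC-like lineage for 55 members and lower for 0 (0 also at an unadjusted p under 0.05), where 11.3% and 8.93% of all genes tested were called. Without the block it was higher for 4, after thinning higher for 10 and lower for 1 (Rpsa, named after its value was seen), at 4000 to 8000 UMIs higher for 33, and at 5% mitochondrial UMIs, without low-depth clusters or without the members in the scaling higher for 29 each. DESeq2 was not run for this test. The median difference was 0.23 against 0.05 for all genes. It was largest for Rpl22l1 (0.43 ± 0.07, edgeR adjusted p = 1.60e-07), Rpl13a (0.39), Rps27l (0.38) and Rpl35a (0.38). In the OPC-like lineage alone Rpl22l1 stood at 0.04 (edgeR adjusted p = 0.521) and Rps27l at 0.09 (edgeR adjusted p = 0.177). Division in astroglia-like cells was not compared, since no dividing cluster took that name.

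Rpl13 was the member that left the module most clearly. It encodes a protein of the large subunit and lies at chr8:123102350-123105244 of GRCm38.p6, on the plus strand. The pyrimidine run printed above lies before its listed start. It had 7847 and 7065 CPM in oligodendrocyte-like, 7664 and 7210 in OPC-like and 6488 and 5872 in dividing OPC-like cells. Microglia-like cells had 5310 and 5013 CPM and the dividing class with no lineage name 4394 and 4076. GABAergic-like cells had 3763 and 3560, glutamatergic-like 3701 and 3567, dividing GABAergic-like 3335 and 2923, astroglia-like 3071 and 2972 and Cajal-Retzius-like cells 2951 and 2860. Oligodendrocyte-like and OPC-like cells overlap, as do GABAergic-like and glutamatergic-like cells, and dividing GABAergic-like cells overlap with both astroglia-like and Cajal-Retzius-like cells. Every cell class of the oligodendrocyte lineage lay above all others. Relative to its mean over the 8 classes and to the other members, Rpl13 stood 0.73 above in OPC-like cells of both libraries and 0.69 and 0.68 above in dividing ones. Of the remaining 79 members, Rps29, Rpl23a and Rps27l left the module by 0.5 or more in some class, and 76 did so in none.

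By cluster, Rpl13 took 6.63% and 6.24% of all member UMIs in OPC-like cluster 3, 5.84% and 5.76% in cluster 9, 5.18% and 4.85% in cluster 13, 5.06% and 4.94% in dividing OPC-like cells, 4.59% and 4.24% in oligodendrocyte-like cells and 4.06% and 3.93% in cluster 10. Of the unnamed clusters, cluster 30, led by Rab11fip1 and with Pdgfra at 936 and 1013 CPM, had 5.15% and 4.81%. Cluster 24, led by Isl1 and with Pdgfra at 356 and 692 CPM, had 4.05% and 4.03%. The next were astroglia-like cluster 7 with 3.66% and 3.39%, and the rest, none above 3.47%, reached down to 2.19% and 2.11% in cluster 23, led by Lyve1. In CPM, clusters 3, 9 and 10 were close, at 7685 and 7136, 8211 and 7695, and 7922 and 7315, while the shallow cluster 13 had 3719 and 3255, near the level of GABAergic-like cells. The lower share in cluster 10 goes with higher levels of the other members there.

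**Figure D4:**
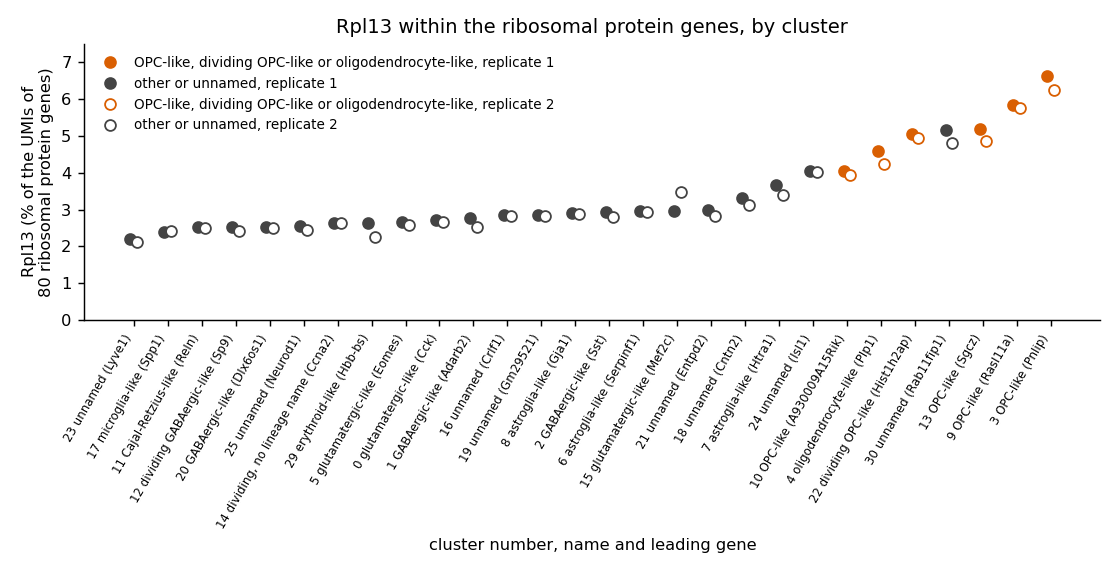
Rpl13 as a percent of all ribosomal protein UMIs (vertical axis) in the 28 clusters with at least 15 cells in both libraries, 1 point per library. The OPC-like clusters 3 and 9 stand highest at 6.63% and 6.24%, and 5.84% and 5.76%.

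Paralogues shifted against their partners between classes. A UMI counts a molecule near its 3′ end whatever its length, so levels of paired genes can be set side by side, and the pairs named here share 0 runs of 31 bases between their transcripts. Rpl22l1 made up 45.7% (45.2 to 46.2, exact Clopper-Pearson 95% interval) and 45.9% of the Rpl22 and Rpl22l1 UMIs in OPC-like cells and 48.1% and 48.7% in astroglia-like cells. The share was 36.3% and 37.3% in glutamatergic-like, 32.5% and 31.9% in GABAergic-like and 32.6% and 32.1% in microglia-like cells. It was 50.7% and 51.8% in dividing OPC-like cells, 38.4% and 39.9% in dividing GABAergic-like cells and 47.1% and 47.2% in the dividing class with no lineage name. Glutamatergic-like, GABAergic-like and microglia-like cells lay below OPC-like and astroglia-like cells, and both named dividing classes lay above the other cells of their lineage.

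In GABAergic-like against OPC-like cells the paired genes moved in opposite directions. Rpl22 rose from 828 and 769 CPM to 974 and 930 (0.36 ± 0.05), and Rpl22l1 fell from 697 and 654 to 469 and 436 (-0.47 ± 0.05). In astroglia-like cells Rpl22 fell by 0.22 on the log2 scale while Rpl22l1 was not called (-0.07, edgeR adjusted p = 0.182).

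Rps27l made up 17.6% and 18.1% of the Rps27 and Rps27l UMIs in OPC-like, 16.3% and 17.4% in astroglia-like, 14.9% and 16.8% in microglia-like, 11.7% and 11.95% in glutamatergic-like and 12.2% and 12.1% in GABAergic-like cells. It was 22.8% and 23.8% in dividing OPC-like, 17.7% and 17.9% in dividing GABAergic-like and 24.9% and 26.3% in the dividing cells with no lineage name. In glutamatergic-like cells Rps27l stood 0.57 and 0.59 below the level of the module. Rpl7l1, the paralogue of Rpl7 and the lowest member in every class, made up between 4.21% and 7.79% of its pair. Counts of Rps27, Rpl9, Rpl10 and Rpl36a are less certain, because their transcripts share runs of 31 bases with copies listed as Rps27rt, Rpl9-ps6, Rpl10-ps3 and Rpl36a-ps1, and those of Rpl19 because an exon overlaps Gm11629 on the same strand.

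**Figure D5:**
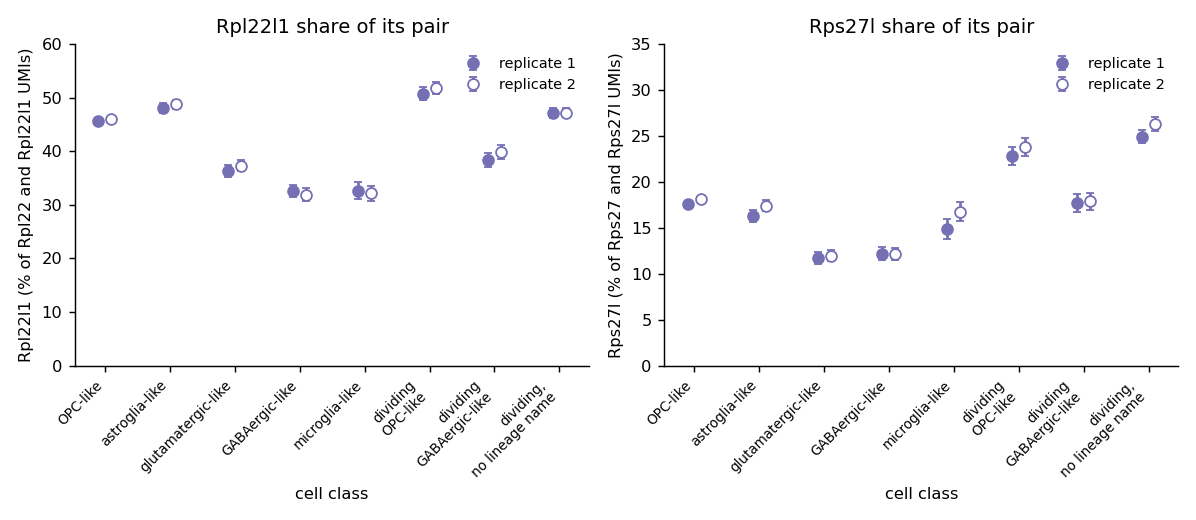
Percent of a paralogue pair's UMIs that fall on the second gene (vertical axis) per cell class, 1 point per library with its exact 95% interval. Rpl22l1 runs from 31.9% in GABAergic-like to 51.8% in dividing OPC-like cells.

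Other genes of the translation machinery were counted by list. In microglia-like cells 27 of 36 initiation factors were called higher and 5 lower, 7 and 1 of 10 elongation factors, 31 and 5 of 54 ribosome biogenesis genes and 45 and 4 of 78 mitochondrial ribosomal protein genes, where 32.5% and 36.1% of all genes tested were. Fau, whose product is cut into a ubiquitin-like protein and the small subunit protein eS30, lies outside the symbol pattern and rose from 2152 and 2023 CPM to 6348 and 5704 (2.10). In astroglia-like cells 21 initiation factors fell and 9 rose, and 35 biogenesis genes fell and 4 rose, where 34.6% of all genes tested fell and 33.3% rose. Eef1a1, the main elongation factor and itself a TOP messenger RNA, fell from 4666 and 4818 CPM to 2649 and 2817 (-0.61), and Eif3e from 273 and 284 to 140 and 137 (-0.82). Of the 78 mitochondrial ribosomal protein genes 25 were higher and 14 lower there, and the share called higher was near that of all genes.

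In dividing OPC-like cells 11 of 54 biogenesis genes fell and 9 rose, shares near the 20.7% and 16.3% of all genes tested. In dividing GABAergic-like cells 11 rose and 5 fell, where 20.2% and 18.4% of all genes did, so the share that rose was near that of all genes too. For the difference between the division effects, 12 of 36 initiation factors and 3 of 54 biogenesis genes were called higher, where 11.3% of all genes were. Against OPC-like cells 14 of 36 initiation factors were higher and 7 lower in glutamatergic-like cells, where 31.2% and 35.2% of all genes were. In GABAergic-like cells 19 were higher and 10 lower, where 29.1% and 33.5% were.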

How the data were processed

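Per the file headers, the authors deposited unnormalised UMI counts, 1 for each gene in each barcode, from Cell Ranger 6.0.2. Seurat 4.1.0, R 4.1.0 and the build mm10 come from the submitters' processing notes. The sources used here do not name the annotation counted. The files held 13858 barcodes with 97091962 UMIs in replicate 1 and 14513 with 108903409 in replicate 2. Barcodes under 500 genes (441 and 657) and over 10% mitochondrial UMIs (2189 and 2891) were removed, then doublets marked by Scrublet per library at an expected 10% (829 or 7.38%, and 808 or 7.37%).

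In scanpy 1.11.5 (Python 3.11.15), 2000 variable genes without ribosomal protein, mitochondrial, hemoglobin and sex-linked genes gave 30 components, 15 neighbours and Leiden clusters at resolution 1.5, named from marker lists and written as "-like". Names rebuilt in this way can differ from the study's own. Counts were summed per library and class with at least 20 cells in both libraries, 20 sums in all, and tested in edgeR 4.0.16 (R 4.3.3) with TMM, filterByExpr and the library as a block, with 9 residual degrees of freedom. The block pairs sums made from 1 sorted pool of cells. DESeq2 1.42.0 was an alternative. The fits were tested on simulated data. CPM are UMIs scaled to a class's total. Intervals cover counting error only.

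The members and gene lists were chosen with earlier results of these data known. Genes named are the 4 members with the highest and the 4 with the lowest fold change among those called with 1 sign in both libraries, both genes of each paralogue pair, members at least 0.5 (log2) from the module's level, and the 2 called genes with the largest change in each direction of other lists. Dll3, Eef1a1, Eif3e, Fau, the OPC-like clusters, their extreme members, and S100a8 and S100a9 were picked after their values had been seen. Alternatives were other scalings, no filter, no block, DESeq2, 4000 to 8000 UMIs, thinning to 2000 UMIs, doublets kept, at most 5% mitochondrial UMIs and cells gated by markers. Leaving out the low-depth clusters and the S100a8 cells was added after seeing the data. A few genes that the naming rule picks are not reported here.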

Additional observations from a re-analysis of the deposited data

Results flagged for a closer look

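For 5 members the effect of division differed between lineages by the interaction test and lay in the named extremes or the paralogue pairs. In GABAergic-like minus OPC-like cells the log2 difference was 0.43 for Rpl22l1, 0.39 for Rpl13a, 0.38 for Rps27l, 0.38 for Rpl35a and 0.30 for Rpl7l1, with edgeR adjusted p = 1.60e-07, 9.23e-07, 8.06e-05, 5.15e-07 and 0.0186. All of these differences were positive in both libraries. For Rps27l the difference was no longer called at 4000 to 8000 UMIs (0.15), after thinning to 2000 UMIs (0.29) and without the low-depth clusters (0.17), while Rpl22l1 ranged from 0.25 to 0.52 over the alternatives and kept its call in each that gives one. Depth, Malat1 and mitochondrial shares also moved with the level of the members within classes, and their part in these differences was not tested.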

How the results depend on the processing

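Of the counts of called members, 68 values under alternatives stayed within 1.5 times and 26 did not. The share of all genes called under each alternative is not given beside them. Without the replicate block, 5 members were higher in glutamatergic-like and 22 in GABAergic-like against OPC-like cells, 9 in GABAergic-like against glutamatergic-like cells, 27 lower in dividing OPC-like cells, 4 higher in dividing GABAergic-like cells and 4 with a higher division effect. The corresponding values were 39, 8 (dividing GABAergic-like) and 29 (division effect) without the members in the scaling, 11 and 22 (neurons against OPC-like) with no filter, and 63, 72, 56, 1 and 33 at 4000 to 8000 UMIs. After thinning they were 41 (glutamatergic-like), 2 and 10 (division). At 5% mitochondrial UMIs they were 54 (GABAergic-like against glutamatergic-like), 5 and 29, with marker gates 53 and 8, and without low-depth clusters 3 and 29. The counts of members lower in astroglia-like and higher in microglia-like cells stayed within 1.5 times under every alternative run. The 2 members higher in astroglia-like cells became 0 without the members in the scaling, with no filter, without the block and without low-depth clusters, 1 in DESeq2, 3 at 4000 to 8000 UMIs and 4 with gates.

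The median turned to -0.036 in glutamatergic-like against OPC-like cells with no filter and to -0.0049 without replicate 2 (0.067 without replicate 1). In dividing GABAergic-like cells it was -0.047 without the members in the scaling, -0.15 at 4000 to 8000 UMIs, -0.084 after thinning, -0.057 at 5% mitochondrial UMIs, -0.040 with gates, -0.083 without low-depth clusters, -0.056 without replicate 1 and 0.12 without replicate 2. Rps10 and Rps12 were at -0.012 and -0.00993 in astroglia-like cells without the members in the scaling. At 4000 to 8000 UMIs Rps18 was at 0.025 (GABAergic-like), Rpl13a at -0.036, Rpl7l1 at -0.078 and the Rpl23a division effect at -0.27. The causes were not tested.

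Mean shares of UMIs were 13.3% (OPC-like), 9.8% (astroglia-like), 14.0% (glutamatergic-like), 15.0% (GABAergic-like) and 10.5% (dividing OPC-like) at 4000 to 8000 UMIs, and 14.8%, 10.6%, 13.9% and 14.8% at 5% mitochondrial UMIs in the first 4. They were 10.4% in astroglia-like cells with doublets kept, 10.9% and 14.5% in astroglia-like and GABAergic-like cells with gates, and 14.8%, 10.6% and 14.2% in OPC-like, astroglia-like and GABAergic-like cells without low-depth clusters. With a replicate left out, a share is simply the value of the other library. That value cannot lie beyond the spread between libraries, so this alternative cannot show how stable a share is. The median of all genes shifted by over 0.1 against OPC-like cells in astroglia-like cells (from -0.01 to -0.14 without the members in the scaling and -0.13 without low-depth clusters). In microglia-like cells it shifted from -0.14 to -0.44 with no filter, -0.26 after thinning, -0.0069 without the members, -0.015 with DESeq2's size factors, 0.0048 in DESeq2 and -0.018 without low-depth clusters.

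Not run were microglia-like and unnamed dividing cells at 4000 to 8000 UMIs, for too few cells, calls without a replicate, which leave no residual degrees of freedom, and DESeq2 for the interaction.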

Other observations

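The libraries differed from each other in the members in a way that ran through all classes. Of the 80 members 40 were lower and 12 higher in replicate 2 in all 8 classes, where 4.91% and 9.47% of the 9427 genes with at least 10 CPM were. The median log2 difference, replicate 2 minus replicate 1, was 0.34 for Rps15, 0.32 for Rpl23a, 0.29 for Rpl13a, 0.29 for Rpl5 and 0.25 for Rpl12. It was -0.24 for Rpl41, -0.22 for Rps29 and -0.21 for Rps28. These genes were picked after their values had been seen, and no test was made of the libraries.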
